A study of Mus musculus with 6 samples.

Results

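The chemokines are small secreted proteins that draw leukocytes along a gradient, and the chemokine receptors are the proteins on the cell surface that read it. A list of 39 such genes, 28 ligands and 11 receptors, was matched by symbol to the RNA-seq table of mouse peritoneal macrophages, and 38 of the 39 had a count in at least 1 of the 6 libraries, out of 54648 symbols in the table. The eosinophil chemokine Ccl11 had no count in any library and was dropped. Of the 38, 33 passed edgeR's filter on low counts over all 6 libraries and were tested. Ccl12, Ccl17, Ccl19, Cxcl3 and Ppbp did not pass it and are given by their levels.

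Peritoneal cells were harvested from wildtype (WT) and homozygous FOXO3 knockout (FOXO3 KO) C57BL/6 mice, 6 to 8 weeks old. The mice were male and female and were kept on standard chow. Each group has 3 libraries, and the sources used here do not say whether each library came from a single mouse. Mice of both groups had received 3% thioglycollate in the abdomen 4 days before, an irritant that recruits monocytes, which then mature into macrophages. No promoter or Cre that limits the knockout to macrophages is named, and no step that sorts macrophages from other peritoneal cells is given in the sources used here. RNA was read in pairs of 76-base reads, and the libraries held 28083393 to 36424117 counts each. The comparison asks which genes differ between macrophages with and without FOXO3, a transcription factor that insulin and growth factor signalling keeps out of the nucleus.

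Chemokines are grouped by their cysteine pattern into CC, CXC and CX3C families, and their receptors signal through inhibitory G proteins. Macrophages are both a source and a target of them: CCL2 and CCL7 call monocytes out of the marrow through CCR2, the CXC ligands of CXCR2 call neutrophils, and CXCL9 and CXCL10 are induced by interferons and call T cells through CXCR3. Recruited monocytes carry CCR2, and CX3CR1 marks monocytes and several tissue macrophages.

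The unit of level is CPM (counts in each library after TMM scaling to the same total), listed for replicates 1, 2 and 3 of each group, and differences as the log2 fold change of FOXO3 KO over WT with its standard error (SE) from edgeR's quasi-likelihood test. Where genes are compared with each other, the level is CPM per kilobase of exon. Adjusted p-values are Benjamini-Hochberg values over all genes tested. The labels do not say more than that the libraries are separate samples, and p-values measure the spread between these samples.

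The targeted gene was read first. Foxo3 (chromosome 10, 42181841 to 42276755, mm10) measured 117, 107 and 73.1 CPM in WT and 4.71, 104 and 4.29 CPM in FOXO3 KO. The library labelled FOXO3 KO 2 was thus at the level of the WT libraries, so differences are given over all 6 libraries by their labels and then without that library. With all 6, the log2 fold change of Foxo3 was -1.40 (SE 1.22; edgeR adjusted p = 0.859), and without the library labelled FOXO3 KO 2 it was -4.46 (SE 0.29; edgeR adjusted p = 0.105).

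WT 3 stood apart from the other libraries. Genes are not independent replicates, but as a description Pearson's r across them was, on log2 CPM, 0.929 to 0.956 for WT 3 with each other library and 0.986 to 0.994 among the others. It held the highest value of 37.2% and the lowest of 37.5% of all tested genes, and the highest of 10 (30.3%) and the lowest of 13 (39.4%) of the 33 chemokine and receptor genes. Xist was high in WT 3 (871 CPM) and FOXO3 KO 3 (1130 CPM) and at most 0.18 CPM elsewhere, and the Y-linked Ddx3y in WT 3 was at 23.7 CPM, between FOXO3 KO 3 (2.37 CPM) and the remaining libraries (98.7 to 123 CPM). The 12 macrophage markers were all present and summed to 15120 to 20144 CPM, of which Lyz2 was the largest part (7746 to 11429 CPM). They were not steady one by one. In WT 3, Cd68, Mrc1 and Fcgr1 were at 525, 193 and 62.2 CPM. Elsewhere they were at 990 to 1472, 464 to 579 and 142 to 178 CPM. Csf1r, Lyz2, C1qb, Mertk and Cd14 were also lowest in WT 3, and Adgre1, C1qa, C1qc and Itgam were highest there. Markers of other cell types also moved between libraries: B cell markers summed to 3312 CPM in WT 3 and 134 to 702 CPM elsewhere, and fibroblast markers to 492 CPM in the library labelled FOXO3 KO 2 and 61.6 to 184 CPM elsewhere. In such bulk samples, fewer cells of a type and less RNA per cell cannot be told apart.

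Over all 6 libraries no chemokine or receptor gene passed an adjusted p of 0.05 in edgeR's quasi-likelihood test, and 0% of the 15608 genes tested did, with 0.714 as the smallest adjusted p. At an unadjusted p under 0.05, 5 of the 33 genes were higher in FOXO3 KO (Ccl2, Ccl7, Cxcl5, Cxcl10 and Cx3cr1), where 4.04% of all genes were, and 0 were lower, where 1.65% of all genes were. All 3 FOXO3 KO libraries lay above all 3 WT libraries for 6 genes (Ccl2, Ccl7, Cxcl5, Ccr2, Cx3cr1 and Cmklr1), where 7.00% of all genes did, and below them for 0, where 5.36% of all genes did. Cxcl5 passed the filter on low counts only through the FOXO3 KO libraries, where it was higher. Its place in these counts is not evidence of a difference. The median log2 fold change was 0.28 over the 33 genes and -0.01 over all genes, and 23 of the 33 were higher in FOXO3 KO against 48.8% of all genes.

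Without the library labelled FOXO3 KO 2, 35 of the genes were tested among 16217. None passed an adjusted p of 0.05 in edgeR, as 0% of all genes did, and the smallest adjusted p of the list was 0.770. At an unadjusted p under 0.05, 5 were higher (Ccl2, Ccl7, Cxcl5, Ppbp and Cx3cr1) against 3.05% of all genes, and 0 were lower against 1.26%. Groups did not overlap for 8 genes that were higher, the 6 above with Ppbp and Ccr1, against 11.0% of all genes, and for 1 that was lower, Cxcr4, against 9.30%. In this fit, Cxcl5 and Ppbp passed the filter on low counts only through the FOXO3 KO libraries, where they were higher. Their places in these counts are not evidence of a difference. The median log2 fold change was 0.23 over the 35 genes and -0.02 over all genes. Of the 35, 21 were higher, against 47.6% of all genes.

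Without WT 3, the count at an unadjusted p under 0.05 was 8 of 34 higher, against 6.15% of all genes, by the addition of Cxcl12, Cxcl14, Ccr1 and Cmklr1 and the loss of Cxcl10. Groups did not overlap for 11 genes that were higher, against 14.2% of all genes. Both counts include Cxcl5, which was again tested only through the FOXO3 KO libraries. DESeq2 gave 1 gene past an adjusted p of 0.05, Ccl2, both over all 6 libraries, where 0.539% of all genes passed, and without the library labelled FOXO3 KO 2, where 0.337% passed.

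**Figure D1:**
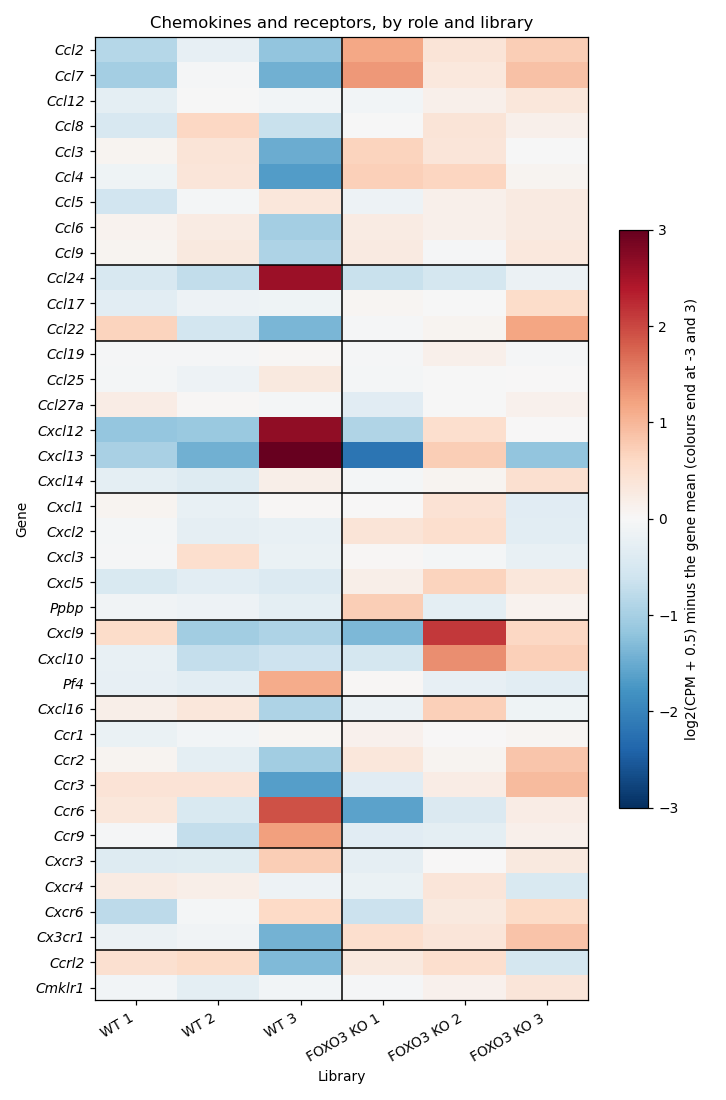
Each row is a chemokine or receptor gene and each column a library, with colour for log2(CPM + 0.5) minus the mean of that gene over the 6 libraries, and black lines between roles and between groups. The top rows, Ccl2 and Ccl7, are blue or pale in the WT columns and red in the FOXO3 KO columns, and the WT 3 column holds the extremes of Ccl24, Cxcl12, Cxcl13, Ccr6 and Ccr3.

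The clearest pair was that of the CCR2 ligands. Ccl2, also known as MCP-1, is the main chemoattractant of inflammatory monocytes and lies on chromosome 11 (82035571 to 82037453, + strand, mm10). It measured 6.09, 9.49 and 4.75 CPM in WT and 25.9, 15.03 and 19.3 CPM in FOXO3 KO. The groups did not overlap, and the lowest FOXO3 KO value was that of the library labelled FOXO3 KO 2. The means were 6.78 ± 2.44 and 20.1 ± 5.46 CPM (SD, n = 3 each), and the log2 fold change was 1.57 (SE 0.32), a 2.96-fold difference. It had an unadjusted p of 0.00254 and an adjusted p of 0.714 by edgeR's quasi-likelihood test, and an adjusted p of 0.00491 by DESeq2. Without the library labelled FOXO3 KO 2 the log2 fold change was 1.74 (SE 0.34), with an adjusted p of 0.770 by edgeR and of 0.00924 by DESeq2. Ccl2 belongs to a panel of genes that the study chose on these samples, and its difference here is not independent evidence of that choice.

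Ccl7, also known as MCP-3, is the neighbour of Ccl2 (chromosome 11, 82045712 to 82047525, + strand) and a ligand of CCR2 as well. It measured 1.94, 4.38 and 1.31 CPM in WT and 11.7, 5.73 and 8.63 CPM in FOXO3 KO. The 6 libraries stood in the same order for Ccl7 as for Ccl2, from FOXO3 KO 1 at the top through FOXO3 KO 3, the library labelled FOXO3 KO 2, WT 2 and WT 1 to WT 3. The log2 fold change was 1.77 (SE 0.51, unadjusted p = 0.0125 and adjusted p = 0.714 by edgeR), and 2.0 (SE 0.55) without the library labelled FOXO3 KO 2. For both genes the exact two-sided permutation test of log2(CPM + 0.5) gave p = 0.1, the smallest that 3 against 3 libraries allow. Groups of 3 that do not overlap always give this value, so it adds nothing to the lack of overlap.

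The libraries split by Xist into 4 low and 2 high, the latter only 1 of each group, so that the split gives values and no test. The low FOXO3 KO libraries were FOXO3 KO 1 and the library labelled FOXO3 KO 2, whose Foxo3 level was that of WT. The high WT library was WT 3, which stood apart from all others. Among the 4 libraries with low Xist, log2(mean CPM + 0.5) was higher in FOXO3 KO by 1.34 for Ccl2 and 1.33 for Ccl7. Between the 2 with high Xist, WT 3 and FOXO3 KO 3, it was higher by 1.91 and 2.33. Without WT 3, the log2 fold changes were 1.38 (SE 0.29) and 1.48 (SE 0.44). None of the 31-base stretches of Ccl2 or Ccl7 exons occurred in another gene, so their reads can be told from those of other CC chemokines. The 16 neutrophil markers summed to 221, 230 and 139 CPM in WT and 498, 239 and 421 CPM in FOXO3 KO, which is the order of the libraries for Ccl2 and Ccl7. Of the 9 that were tested, 9 were higher in FOXO3 KO (median 0.73 on the log2 scale), against 48.8% of all genes. A rare marker can pass the filter on low counts through the group where it is higher, so the 9 of 9 is not evidence of a difference. By edgeR, 4 of the 9 markers were at an unadjusted p under 0.05 (S100a8, S100a9, Lcn2 and Stfa3), where 4.04% of all genes were higher. Much of the higher sum in FOXO3 KO 1 and 3 lay in S100a8 and S100a9. S100a8 measured 7.89, 11.3 and 2.40 CPM in WT and 83.2, 12.9 and 59.8 CPM in FOXO3 KO. S100a9 measured 0.471, 5.61 and 0.252 CPM in WT and 164, 6.93 and 117 CPM in FOXO3 KO. Both, and Stfa1, belong to the panel that the study chose on these samples, so the sum is not independent evidence. The defining Ly6g did not exceed 0.12 CPM. The part of neutrophils in the levels of the pair was not tested.

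The remaining genes of that cluster on chromosome 11 were barely present. Ccl12, a further mouse CCR2 ligand (82101845 to 82103400), lay between 0.055 and 0.36 CPM, with at most 12 counts in a library. Ccl8, a CC ligand related to them (82115185 to 82116799), lay between 0.36 and 1.59 CPM with its highest value in WT 2, and its log2 fold change was 0.39 (SE 0.60), or 0.23 without the library labelled FOXO3 KO 2. Ccl11 (82057823 to 82062955), which sits between Ccl7 and Ccl12, had 0 counts. Thus of these neighbours only Ccl2 and Ccl7 were found at an unadjusted p under 0.05, and the difference between them and the others was not tested.

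A further group of CC genes on chromosome 11 held the most abundant ligands. Ccl6 (83587882 to 83593087), a ligand of CCR1 made by myeloid cells, had the highest level of all ligands, 910 CPM per kilobase over the 6 libraries. It measured 1695, 1859 and 771 CPM in WT and 1852, 1737 and 1889 CPM in FOXO3 KO. The next was its neighbour Ccl9 (83572919 to 83578636), also a CCR1 ligand, at 252 CPM per kilobase, with 787, 905 and 391 CPM in WT and 891, 717 and 918 CPM in FOXO3 KO. For both, WT 3 was lowest and the other 5 libraries overlapped. Their log2 fold changes of 0.34 (SE 0.35) and 0.28 (SE 0.33) dropped to 0.05 and 0.00 when WT 3 was left out, and were 0.38 and 0.38 without the library labelled FOXO3 KO 2.

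Ccl3 and Ccl4, the MIP-1 chemokines that activated macrophages release, followed a similar course. Ccl3 (83647844 to 83649355, 26.7 CPM per kilobase) measured 19.6, 24.5 and 6.35 CPM in WT and 29.7, 24.1 and 18.3 CPM in FOXO3 KO. Ccl4 lay between 2.71 CPM in WT 3 and 16.4 CPM in FOXO3 KO 1. Both had their lowest value in WT 3 and their highest in FOXO3 KO 1. The log2 fold changes were 0.52 (SE 0.48) and 0.80 (SE 0.54), or 0.14 and 0.39 without WT 3 and 0.51 and 0.71 without the library labelled FOXO3 KO 2. Ccl5, known as RANTES and best known from T cells, lay between 9.92 and 19.2 CPM with a log2 fold change of 0.15 (SE 0.26), or 0.12 without the library labelled FOXO3 KO 2. All 8 tested genes of this role group had a positive log2 fold change, with a median of 0.45, and 0.26 without WT 3.

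**Figure D2:**
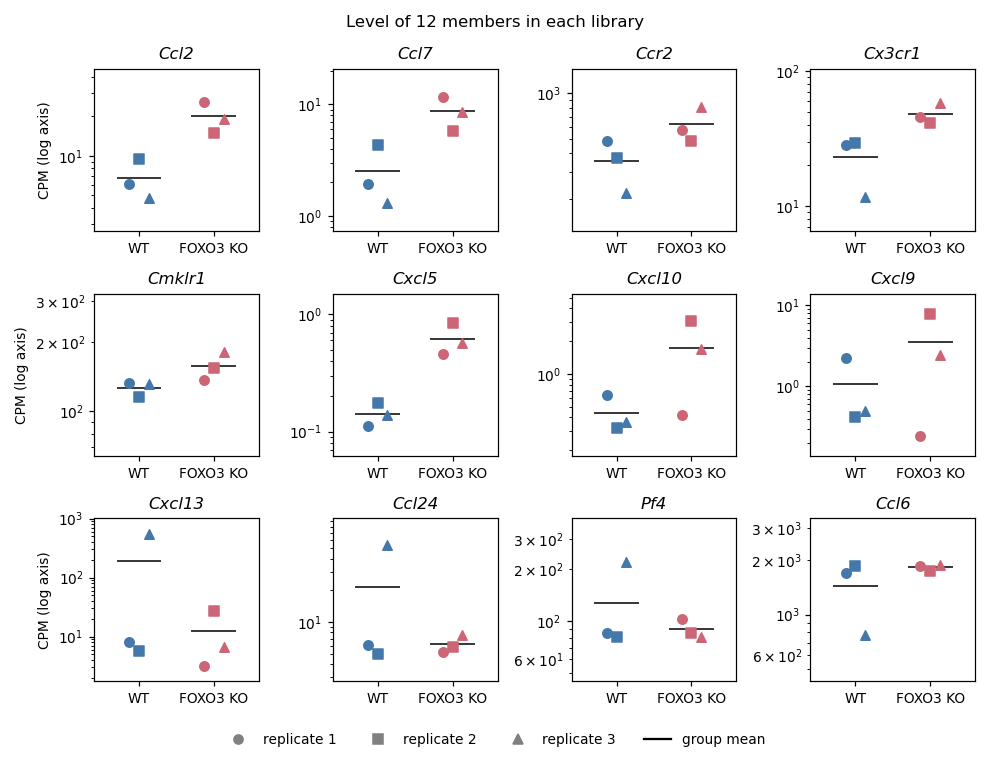
Each panel gives the CPM of 1 gene on a log axis, with a point for each library, its shape for the replicate number, and a line for the group mean. Ccl2, Ccl7, Ccr2, Cx3cr1, Cmklr1 and Cxcl5 have all FOXO3 KO points above all WT points, while Cxcl13, Ccl24 and Pf4 have the WT 3 point above the other 5 and Ccl6 has it below them.

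The ligands linked to type 2 responses were low, apart from Ccl24 in WT 3. Ccl24, or eotaxin-2, a CCR3 ligand that calls eosinophils, measured 6.07, 4.98 and 53.3 CPM in WT and 5.24, 5.80 and 7.59 CPM in FOXO3 KO. WT 3 was 7.02 times the next library, and the log2 fold change of -1.79 (SE 0.94) became 0.18 without it, and was -1.74 without the library labelled FOXO3 KO 2. The CCR4 ligand Ccl22 lay between 1.29 CPM in WT 3 and 10.1 CPM in FOXO3 KO 3, with overlapping groups and a log2 fold change of 0.77 (SE 0.68), or 0.96 without the library labelled FOXO3 KO 2. Ccl17, which shares that receptor, measured 0.111, 0.176 and 0.196 CPM in WT and 0.283, 0.255 and 0.5996 CPM in FOXO3 KO, from 4 to 20 counts in a library. Its groups did not overlap, although it was too low for edgeR's filter, and DESeq2 gave a log2 fold change of 1.26 (SE 0.75, unadjusted p = 0.0917).

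Among the homeostatic ligands, which place lymphocytes in resting tissue, Cxcl13 showed the widest range of all. Cxcl13 is the B cell chemokine that acts through CXCR5 and that resident macrophages of body cavities are known to make (chromosome 5, 95956951 to 95961068, 88.1 CPM per kilobase). It measured 8.0, 5.61 and 557 CPM in WT and 3.15, 27.2 and 6.78 CPM in FOXO3 KO. WT 3 was 20.5 times the next library, which was the library labelled FOXO3 KO 2. The log2 fold change of -3.94 (SE 1.95, unadjusted p = 0.0876 by edgeR) became 0.86 without WT 3 and -5.25 without the library labelled FOXO3 KO 2. The 8 B cell markers were also highest in WT 3 by their sum, 3312 CPM, as was Cxcr5, the receptor of Cxcl13, with 62.2, 27.2 and 303 CPM in WT and 12.2, 35.0 and 60.7 CPM in FOXO3 KO. Their part in the Cxcl13 value was not tested.

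Cxcl12, the CXCR4 ligand that holds cells in the marrow, measured 19.0 CPM in WT 3 and 0.886 to 3.83 CPM elsewhere. Its log2 fold change was -1.46 (SE 1.26) with WT 3 and 1.49 (SE 0.53, unadjusted p = 0.0290 by edgeR) without it, and it was -1.88 (SE 1.58) without the library labelled FOXO3 KO 2. The next highest library was the library labelled FOXO3 KO 2, where fibroblast markers were highest, and fibroblasts are a known source of this ligand. In WT 3, the highest library for Cxcl12, the fibroblast markers summed to only 68.1 CPM, where all libraries ranged from 61.6 to 492 CPM. The part of those cells was not tested. Ccl25 (4.90 to 6.82 CPM), Ccl27a (0.992 to 1.72 CPM) and Cxcl14 (2.68 to 5.34 CPM) had log2 fold changes of -0.06, -0.18 and 0.38, or -0.06, -0.22 and 0.44 without the library labelled FOXO3 KO 2, and Ccl19 had at most 2 counts in a library. Of the exon stretches of 31 bases in Ccl19 and Ccl27a, 58.8% and 57.0% also occur in other genes, mostly their own copies, so their counts depend on how shared reads were assigned.

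The neutrophil-attracting ligands of CXCR2 sit together on chromosome 5. Cxcl1 (90891241 to 90893115), Cxcl2 (90903871 to 90905938) and Cxcl3 (90786103 to 90789600) are fast targets of NF-kB, and their promoters are shown here because all carry a match to the kappa B motif close to the start while their levels differed widely. The stretches are from RefSeq on GRCm38.p6, the assembly of mm10, on the + strand, from 110 to 51 bases before the start site, at chr5:90891135-90891194, chr5:90903789-90903848 and chr5:90785991-90786050. Capitals mark the match.

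Cxcl1: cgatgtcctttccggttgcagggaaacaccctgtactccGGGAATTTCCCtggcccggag
Cxcl2: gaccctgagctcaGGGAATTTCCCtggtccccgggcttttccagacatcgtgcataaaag
Cxcl3: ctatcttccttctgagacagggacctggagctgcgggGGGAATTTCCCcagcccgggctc

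The capitals read the same in all 3 stretches. The levels over the 6 libraries were 6.08 CPM per kilobase for Cxcl2, 2.11 for Cxcl1 and 0.0979 for Cxcl3, which had at most 19 counts in a library. Cxcl2 lay between 9.68 and 17.6 CPM with a log2 fold change of 0.43 (SE 0.24), or 0.27 without the library labelled FOXO3 KO 2. Cxcl1 lay between 2.998 and 5.44 CPM with a log2 fold change of 0.11 (SE 0.28) that became -0.14 without the same library. For both, the highest library was the one labelled FOXO3 KO 2 and the lowest was FOXO3 KO 3.

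Cxcl5, or LIX, a CXCR2 ligand known from epithelial and other non-leukocyte cells, was low throughout but separated the groups. It measured 0.111, 0.176 and 0.140 CPM in WT and 0.461, 0.839 and 0.570 CPM in FOXO3 KO, from 4 to 5 counts in a WT library and 13 to 23 in a FOXO3 KO library. Its log2 fold change of 2.11 (SE 0.39, unadjusted p = 0.00145 and adjusted p = 0.714 by edgeR) was 1.84 (SE 0.41) without the library labelled FOXO3 KO 2. Cxcl5 passed edgeR's filter only through the FOXO3 KO libraries, where it was higher, so these p-values are not those of an unselected gene. The exact permutation test gave p = 0.1, the smallest possible, which follows from the lack of overlap alone. The sum of the 8 mesothelial markers was 7.31, 6.21 and 13.5 CPM in WT and 13.1, 44.3 and 19.0 CPM in FOXO3 KO, and that of the 8 fibroblast markers was 83.5, 61.6 and 68.1 CPM in WT and 99.8, 492 and 184 CPM in FOXO3 KO. Within FOXO3 KO, both sums had the library labelled FOXO3 KO 2 highest and FOXO3 KO 1 lowest, as Cxcl5 did, and the part of those cells in its level was not tested. For Ccl2 and Ccl7 the order within FOXO3 KO was the reverse of this. The fibroblast sum was, like both genes, higher in every FOXO3 KO library than in any WT library. The part of those cells in the levels of Ccl2 and Ccl7 was not tested.

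Ppbp, the platelet basic protein, measured 0.194, 0.176 and 0.112 CPM in WT and 0.744, 0.109 and 0.300 CPM in FOXO3 KO, with overlapping groups. DESeq2 gave it a log2 fold change of 1.27 over all 6 libraries (SE 0.91, unadjusted p = 0.162), and edgeR, whose filter it did not pass there, one of 1.67 without its lowest library, that labelled FOXO3 KO 2 (SE 0.57, unadjusted p = 0.0303). Ppbp then passed the filter only through the remaining FOXO3 KO libraries, so the latter p-value is not evidence of a difference. Its neighbour Pf4, platelet factor 4, which monocytes and macrophages also express, came after Ccl6 and Ccl9 by level, at 151 CPM per kilobase. Pf4 measured 84.9, 80.8 and 219 CPM in WT and 103, 85.7 and 81.2 CPM in FOXO3 KO, so WT 3 was 2.12 times the next library. Its log2 fold change of -0.51 (SE 0.41) became 0.13 without WT 3 and -0.47 without the library labelled FOXO3 KO 2. Of the 8 platelet markers 7 had counts, and they summed to 7.51, 4.76 and 5.65 CPM in WT and 4.96, 5.69 and 5.70 CPM in FOXO3 KO. The part of platelets in the Pf4 and Ppbp values was not tested.

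The interferon-induced ligands of CXCR3, Cxcl9 and Cxcl10, lie side by side on chromosome 5. Cxcl10 (92346638 to 92348889, - strand), also known as IP-10, measured 0.637, 0.318 and 0.363 CPM in WT and 0.425, 3.03 and 1.68 CPM in FOXO3 KO. FOXO3 KO 1 lay inside the range of WT and the other 2 above it, with the library labelled FOXO3 KO 2 highest. The log2 fold change was 1.94 (SE 0.72, unadjusted p = 0.0343 and adjusted p = 0.839 by edgeR), and 1.25 (SE 0.68, unadjusted p = 0.122 by edgeR) without that library. Cxcl9 (92321347 to 92328079, - strand) measured 2.27, 0.423 and 0.503 CPM in WT and 0.248, 7.77 and 2.43 CPM in FOXO3 KO, with the same 2 libraries highest. Its log2 fold change was 1.69 (SE 1.19), and 0.33 (SE 1.15) without the library labelled FOXO3 KO 2. Both ligands had their highest value in the library whose Foxo3 level was that of WT and whose fibroblast and mesothelial markers were highest, and the part of those cells was not tested.

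The promoter of Cxcl10 is shown whole since Cxcl10 was alone among the genes searched in matching both inflammatory motifs, the interferon-stimulated response element and the kappa B site. It comprises the 250 bases before the start site (chr5:92348890-92349139, - strand, RefSeq on GRCm38.p6). The stretches in capitals are, from the left, the response element and a pair of kappa B stretches, the last holding matches that overlap.

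Cxcl10: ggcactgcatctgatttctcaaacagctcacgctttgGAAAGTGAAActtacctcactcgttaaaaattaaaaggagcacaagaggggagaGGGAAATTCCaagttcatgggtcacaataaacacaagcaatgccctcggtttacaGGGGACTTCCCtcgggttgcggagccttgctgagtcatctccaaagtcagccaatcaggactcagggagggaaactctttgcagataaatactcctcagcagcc

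RefSeq promoters were at hand for 31 of the 39 genes, without Ccl2, Ccl4, Ccl5, Ccl7, Ccl11, Ccl24, Cxcl5 and Cxcl16. The 250 bases before each start were searched on both strands for 3 motifs. The kappa B motif matched in 9 of the 31 genes (29.0%; Ccl9, Cxcl1, Cxcl2, Cxcl3, Cxcl10, Ccr1, Ccr3, Ccr6 and Ccrl2), and in 8.23% of 27025 genes and 7.25% of 32851 promoters of that length. The response element, GAAANNGAAA, matched in 3 genes (9.68%; Ccl19, Cxcl10 and Cxcl14), and in 3.46% of all genes and 2.98% of all promoters. The FoxO motif GTAAACA matched in 0 of the 31, and in 3.54% of all genes and 3.17% of all promoters. These are matches of letters in these windows and not sites.

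**Figure D3:**
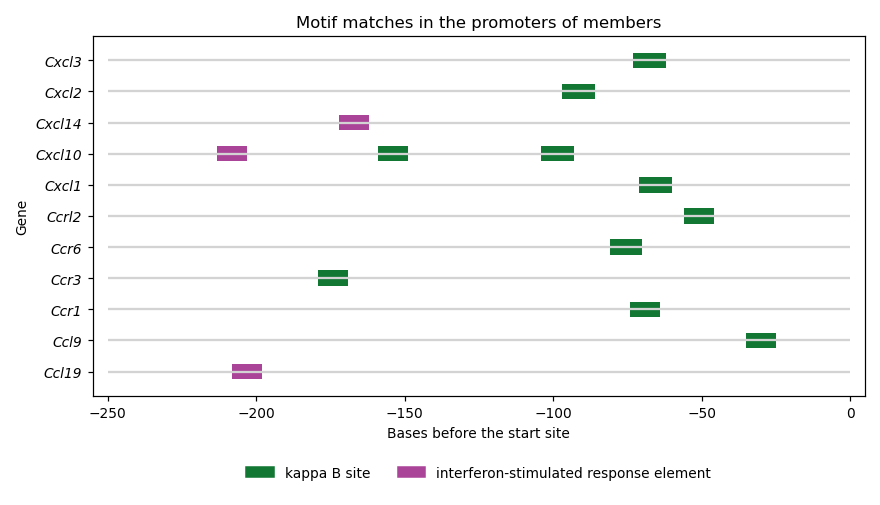
Each grey line is the 250 bases before the start site of 1 gene, and blocks mark matches to the kappa B motif (green) and to the interferon-stimulated response element (purple), for the 11 genes with a match. Cxcl10 has both kinds, and the kappa B matches of Cxcl1, Cxcl2 and Cxcl3 lie within the stretch from 110 to 51 bases before the start.

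Cxcl16, the membrane-bound ligand of CXCR6, lay between 31.1 CPM in WT 3 and, in the library labelled FOXO3 KO 2, 97.9 CPM. The log2 fold change of 0.24 (SE 0.39) turned to -0.12 without the latter and to -0.05 without WT 3. Of its exon stretches, 18.5% overlap Zmynd15.

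Among the receptors, several lie in a cluster on chromosome 9. Of the 11 listed, the highest by CPM per kilobase was Ccr1 (123962124 to 123968692), the receptor of Ccl6, Ccl9 and Ccl3, at 79.7. It measured 198, 212 and 234 CPM in WT and 248, 229 and 235 CPM in FOXO3 KO, with WT 3 above the lowest FOXO3 KO library, which was the one labelled FOXO3 KO 2. The log2 fold change was 0.15 (SE 0.11), and 0.17 (SE 0.15) without that library. Without WT 3 it was 0.22 (SE 0.08, unadjusted p = 0.0302 by edgeR). Cxcr4, the Cxcl12 receptor on chromosome 1 (128588199 to 128592293), came next at 75.7 CPM per kilobase, with 160, 152 and 121 CPM in WT and 117, 173 and 97.9 CPM in FOXO3 KO. Its log2 fold change was -0.16 (SE 0.24), and -0.43 (SE 0.19, unadjusted p = 0.0691 by edgeR) without the library labelled FOXO3 KO 2, when both remaining FOXO3 KO libraries lay below all 3 WT libraries.

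Ccr2, the receptor of Ccl2 and Ccl7 (chromosome 9, 124101950 to 124113557, + strand), was close behind at 72.4 CPM per kilobase. By CPM alone Ccr2 was above Ccr1, with means of 490 and 226 CPM over the 6 libraries. Their order per kilobase rests on exon lengths joined over all transcripts, 6760 and 2833 bases. Ccr2 measured 482, 370 and 218 CPM in WT and 571, 484 and 812 CPM in FOXO3 KO. The groups did not overlap, although WT 1 and the library labelled FOXO3 KO 2 nearly met, and with the size factors of DESeq2 they did overlap. The means were 357 ± 132 and 622 ± 170 CPM (SD, n = 3 each), and the log2 fold change was 0.80 (SE 0.34, unadjusted p = 0.0531 and adjusted p = 0.839 by edgeR). It was 0.95 (SE 0.38, unadjusted p = 0.0519 by edgeR) without the library labelled FOXO3 KO 2 and 0.56 (SE 0.24) without WT 3. Among the 4 libraries with low Xist, which include the library labelled FOXO3 KO 2, log2(mean CPM + 0.5) was 0.31 higher in FOXO3 KO. Between WT 3 and FOXO3 KO 3 it was 1.89 higher.

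Cx3cr1, the fractalkine receptor of monocytes and tissue macrophages (chromosome 9, 119901616 to 120069879, - strand), measured 28.2, 29.5 and 11.7 CPM in WT and 45.6, 41.2 and 57.8 CPM in FOXO3 KO. The groups did not overlap. The means were 23.1 ± 9.91 and 48.2 ± 8.63 CPM (SD, n = 3 each), and the log2 fold change was 1.06 (SE 0.36, unadjusted p = 0.0240 and adjusted p = 0.788 by edgeR). It was 1.16 (SE 0.42) without the library labelled FOXO3 KO 2 and 0.75 (SE 0.16, unadjusted p = 0.00264 by edgeR) without WT 3. Within the Xist split, log2(mean CPM + 0.5) was 0.58 higher in FOXO3 KO in the low libraries and 2.26 higher between the 2 high ones. The low libraries again include the library labelled FOXO3 KO 2, and the high ones WT 3. Cx3cr1 and Ccr2 had FOXO3 KO 3 highest and WT 3 lowest, unlike Ccl2 and Ccl7, which had FOXO3 KO 1 highest.

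Of the receptors for chemerin, a chemoattractant of macrophages and dendritic cells, Cmklr1 is the one that signals (chromosome 5, 113612354 to 113650426, - strand, 41.5 CPM per kilobase). It measured 132, 115 and 132 CPM in WT and 137, 153 and 180 CPM in FOXO3 KO, with groups that did not overlap but lay close. The log2 fold change was 0.31 (SE 0.14, unadjusted p = 0.0592 by edgeR), 0.33 (SE 0.17) without the library labelled FOXO3 KO 2 and 0.35 (SE 0.13, unadjusted p = 0.0376 by edgeR) without WT 3. Ccrl2 (chromosome 9, 111054486 to 111057519, 28.7 CPM per kilobase), which binds chemerin without signalling, measured 94.5, 101 and 26.5 CPM in WT and 82.6, 95.3 and 47.0 CPM in FOXO3 KO. The 2 libraries with high Xist were the lowest for Ccrl2, and its log2 fold change was 0.02 (SE 0.52), turning to -0.19 without the library labelled FOXO3 KO 2 and to -0.38 without WT 3. The exact permutation test gave p = 0.1, the smallest possible, for Ccr2, Cx3cr1 and Cmklr1. That value follows from the lack of overlap alone and is no further evidence.

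**Figure D4:**
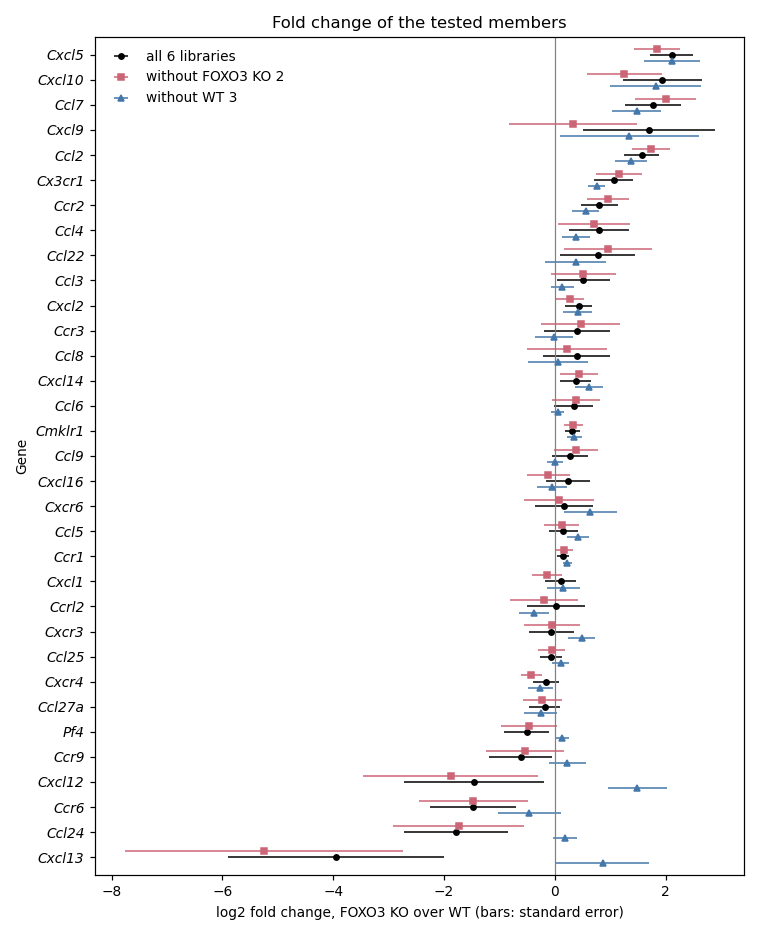
Log2 fold changes of FOXO3 KO over WT from edgeR are drawn with their standard errors for the 33 tested genes, over all 6 libraries (black), without the library labelled FOXO3 KO 2 (red squares) and without WT 3 (blue triangles). Cxcl5, Ccl7, Ccl2, Cx3cr1 and Ccr2 keep a positive value in all 3 fits, while Cxcl13, Ccl24 and Cxcl12 move from negative to positive without WT 3.

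The other receptors had overlapping groups. Ccr3, the eotaxin receptor, lay between 8.92 CPM in WT 3 and 56.5 CPM in FOXO3 KO 3, with a log2 fold change of 0.40 (SE 0.59), or 0.47 without the library labelled FOXO3 KO 2. Ccr6, which B cells carry, measured 23.1 CPM in WT 3 and 1.56 to 7.42 CPM elsewhere, with a log2 fold change of -1.47 (SE 0.78) that was -0.46 without WT 3 and -1.47 (SE 0.98) without the library labelled FOXO3 KO 2. Ccr9 (1.8 to 8.33 CPM), Cxcr3 (3.19 to 7.55 CPM) and Cxcr6 (1.74 to 5.34 CPM), receptors of lymphocytes, had their highest value in WT 3 and log2 fold changes of -0.62, -0.06 and 0.16, or -0.53, -0.05 and 0.08 without the library labelled FOXO3 KO 2. Of the exon stretches of 31 bases in Ccr9, 21.7% also occur in other genes, so its counts depend on how shared reads were assigned.

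Of 28 further chemokine system genes, 22 had counts and 12 were tested, with 2 higher and 1 lower at an unadjusted p under 0.05 over all 6 libraries, where 4.04% of all genes were higher and 1.65% lower. Cxcr2, the neutrophil receptor of the CXC ligands above, measured 0.886, 0.882 and 0.587 CPM in WT and 18.7, 2.23 and 14.4 CPM in FOXO3 KO, with the library labelled FOXO3 KO 2 nearest to WT. Its log2 fold change was 3.90 (SE 0.80, unadjusted p = 0.00241 by edgeR), and 4.40 (SE 0.30) without that library, and Cxcr2 is a gene that the study selected on these samples. The neutrophil markers described beside Ccl2 were likewise highest in FOXO3 KO 1 and 3, and their part in the Cxcr2 value was not tested.

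Xcr1, the receptor of cross-presenting dendritic cells, measured 1.55, 2.22 and 0.699 CPM in WT and 3.19, 2.59 and 3.93 CPM in FOXO3 KO, with a log2 fold change of 1.12 (SE 0.45, unadjusted p = 0.0449 by edgeR), or 1.26 (SE 0.52, unadjusted p = 0.0591 by edgeR) without the library labelled FOXO3 KO 2. The 8 dendritic cell markers, of which Xcr1 is 1, summed to 97.6, 101 and 112 CPM in WT and 120, 130 and 155 CPM in FOXO3 KO, and the part of those cells was not tested. Ackr2, the decoy receptor that removes inflammatory CC ligands, measured 4.29, 2.19 and 11.97 CPM in WT and 0.921, 1.28 and 2.25 CPM in FOXO3 KO. FOXO3 KO 3 lay just above WT 2, and the log2 fold change of -2.05 (SE 0.70, unadjusted p = 0.0247 by edgeR) was -1.95 (SE 0.87, unadjusted p = 0.0730 by edgeR) without the library labelled FOXO3 KO 2 and -1.11 (SE 0.46, unadjusted p = 0.0512 by edgeR) without WT 3. The B cell markers summed to 702, 353 and 3312 CPM in WT and 134, 320 and 675 CPM in FOXO3 KO. That is the order of the libraries for Ackr2, and the part of B cells in its level was not tested. Of 30 genes that carry chemokine receptor signals inside the cell, such as G protein subunits, arrestins and Rac activators, 29 were tested and 0 had an unadjusted p under 0.05 in either direction, against the same shares of all genes, with a median log2 fold change of 0.06. Without the library labelled FOXO3 KO 2, 1 was higher at that threshold, against 3.05% of all genes: Rgs18, a brake on G protein signals (log2 fold change 0.31, SE 0.11).

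**Figure D5:**
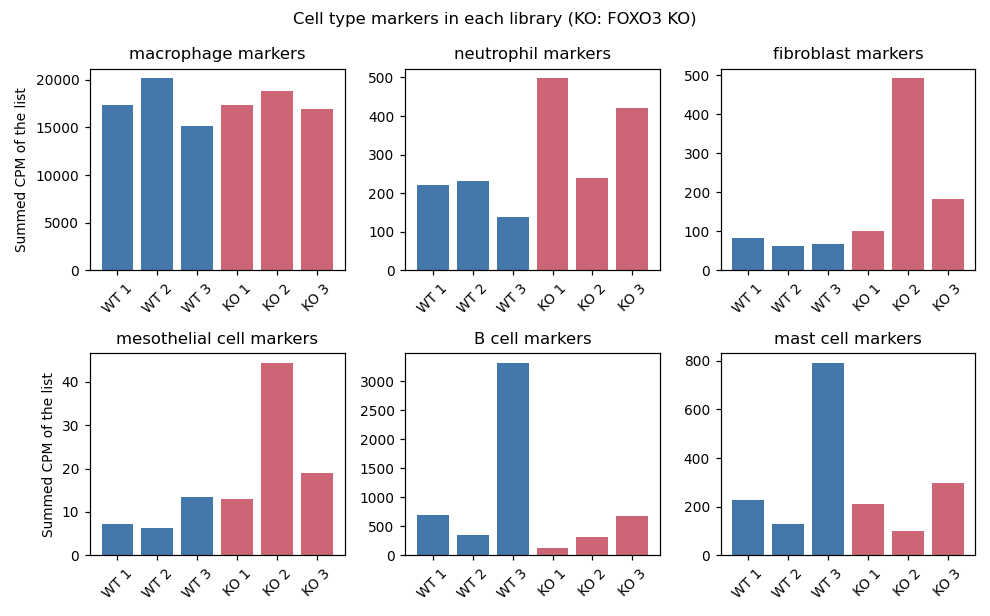
Bars give the summed CPM of fixed marker lists in each library, WT in blue and FOXO3 KO in red. Macrophage markers range from 15120 to 20144 CPM, neutrophil markers are highest in FOXO3 KO 1 and 3, fibroblast and mesothelial markers in the library labelled FOXO3 KO 2, and B cell and mast cell markers in WT 3.

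The share of all counts that fell on the 38 genes was lowest in WT 3 (0.318%) and highest in FOXO3 KO 3 (0.472%), and Ccl6, Ccl9 and Ccr2 were among the largest contributors.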

How the data were processed

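Estimated counts per gene symbol, without normalization, were deposited by the authors for the 6 libraries. The submitters' processing notes name STAR 2.6.1d, kallisto 0.46.0, DESeq2 and the build mm10 without their roles, so the program behind the counts is unknown here. Values were rounded, 81.4% of them by less than 0.01. Chemokine paralogs that share sequence depend on how shared reads were assigned.

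edgeR 4.0.16 in R 4.3.3 (filterByExpr, TMM, glmQLFit, glmQLFTest) was fitted on the whole table by label, without a covariate, with Benjamini-Hochberg adjustment across the tested genes. The SE was taken from each log2 fold change and its F statistic, as |log2 fold change| / sqrt(F). The fit was tested on simulated data. Single values were compared by exact two-sided permutation of log2(CPM + 0.5). Exon lengths and coordinates are from GENCODE M21 (GRCm38, the assembly of mm10), which held 54105 of the 54648 symbols, and Adrbk1 and Adrbk2 were read as Grk2 and Grk3. Motifs and figures were made in Python 3.11.15.

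Members, gene lists and tests were chosen with earlier results of these data known. Values per library are given for Foxo3, Ccl2, members at an unadjusted p under 0.05 in the fits with or without the library labelled FOXO3 KO 2, members whose groups do not overlap, the 5 ligands and 5 receptors with the highest level per length, and, in the other lists, Cxcr2 and genes at an unadjusted p under 0.05. Values of Cxcl9 and of other genes named outside this rule, such as Cxcr5, were chosen after they were seen. Alternatives were DESeq2 1.42.0, edgeR's likelihood ratio test, limma-voom (limma 3.58.1), DESeq2 size factors, no factors, no filter, a filter of 10 counts in 3 libraries or more, a replicate block, a covariate for the split by Xist and each library left out.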

Additional observations from a re-analysis of the deposited data

How the results depend on the processing

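At an adjusted p under 0.05, DESeq2 called 1 gene (Ccl2, log2 fold change 1.57, adjusted p = 0.00491), edgeR's likelihood ratio test 2 (Ccl2, adjusted p = 0.0103, and Cxcl5, 2.11, adjusted p = 0.0226) and DESeq2 without the library labelled FOXO3 KO 2 called 1 (Ccl2, 1.74, adjusted p = 0.00924). limma-voom called 0. Over all alternatives, each called 0, 1 or 2. The count at an unadjusted p under 0.05 that was lower in FOXO3 KO, 0 in the report, was 1 with DESeq2, with no filter, with the replicate block and with the covariate for the split by Xist, 2 with the likelihood ratio test and 0 to 3 with 1 library left out. The count that was higher was 4 to 8 with 1 library left out (8 without WT 3), and groups did not overlap for 8 to 11 higher (11 without WT 3) and for 0 to 1 lower. The 3 lower at an unadjusted p under 0.05 appeared without WT 2. Of all genes, 2.13% were lower at that p with DESeq2 and 4.85% with the covariate. Without WT 3, 6.15% of all genes were higher at that p, and groups did not overlap for 14.2% higher and 10.9% lower. Without the library labelled FOXO3 KO 2, these shares were 3.05%, 11.0% and 9.30%. Shares of all genes for the remaining fits are not given here, and their counts are not read as results about the list. The median log2 fold change of the list was 0.36 with DESeq2 and 0.21 to 0.35 with 1 library left out, and that of Foxo3 was -4.46 to -0.87.

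The alternatives that follow were chosen after seeing the data. Their edgeR counts of higher genes include Cxcl5, and the 8 of 35 below also include Ppbp. Both passed the filter only through the FOXO3 KO libraries, so their places are not evidence of a difference. With the covariate for the split by Xist and the library labelled FOXO3 KO 2 left out, 8 of 35 were higher and 3 lower at an unadjusted p under 0.05, where 5.86% and 8.66% of all genes were, and 1 did not overlap and was lower, where 9.30% of all genes were, as with DESeq2 without that library (1, against 7.86%). With that library and WT 3 both left out, 2 of 34 were lower at an unadjusted p under 0.05, where 3.39% of all genes were, and groups did not overlap for 12 higher and 3 lower, where 19.8% and 18.3% of all genes did not. Foxo3 passed an adjusted p of 0.05 in each of these fits, at -4.46 with DESeq2, -4.35 with the covariate and -4.64 with both left out.

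Reversals were of genes at an unadjusted p of 0.05 or more over all 6 libraries. Cxcr3 had a log2 fold change of 0.034 with limma-voom, 0.035 with the replicate block and 0.040 with the covariate, where Cxcl12 had 0.056. Without the library labelled FOXO3 KO 2, DESeq2 gave -0.19 for Ccrl2, -0.14 for Cxcl1 and -0.12 for Cxcl16, and the covariate -0.13 for Cxcl1, -0.0013 for Cxcl9 and -0.18 for Cxcr6. With that library and WT 3 both left out, values were 0.22 for Ccl24, 0.095 for Ccl25, -0.11 for Ccl8, 0.29 for Ccr9, -0.59 for Ccrl2, -0.11 for Cxcl1, 1.06 for Cxcl12, -0.41 for Cxcl16, -0.021 for Cxcl9, 0.49 for Cxcr3 and 0.16 for Pf4.

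With 1 library left out, the log2 fold changes that turned ranged from -0.070 to 0.42 for Ccl5, -0.17 to 0.64 for Cxcr6, -2.25 to 0.18 for Ccl24, -0.15 to 0.11 for Ccl25, -0.016 to 0.68 for Ccr3, -0.99 to 0.23 for Ccr9, -0.38 to 0.31 for Ccrl2, -2.0 to 1.49 for Cxcl12, -5.25 to 0.86 for Cxcl13, -0.12 to 0.47 for Cxcl16, -0.28 to 0.49 for Cxcr3, -0.75 to 0.13 for Pf4, -0.14 to 0.30 for Cxcl1 and -0.43 to 0.0090 for Cxcr4. The causes of these changes were not tested.

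The labels do not say whether the replicate numbers pair the libraries. The deviations of same-numbered libraries from their group means correlated at 0.339, -0.0612 and 0.567, too few values to decide it. The block with the replicate number left 0 genes of the list past an adjusted p of 0.05. Precision is limited by 3 libraries a group, by WT 3 and by the library labelled FOXO3 KO 2, and for Cxcl5, Ppbp and Cxcl10 also by low counts.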
